A study of Mus musculus with 8 samples.

Results

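Spink5, Aloxe3, Alox12b, Tgm1, Ivl, Sprr1a and Cers3, which encode 7 proteins of the epidermal barrier, were followed across 8 RNA sequencing libraries of a mouse kidney cell line. They are 7 of the 22274 genes with a row in the count table, found there by symbol. The group was chosen by the rises of Aloxe3 and Spink5 in the single comparison the series allows. Its differences between treatments are therefore given as a description, without a test. Per the labels the cells are RFB, a kidney line of the cell type fibroblast, and all 8 libraries come from cells given TGF-β, a cytokine that drives matrix production. In 4 libraries TGF-β was the only agent, and in 4 chaetocin was added, a fungal metabolite used to inhibit the histone methyltransferase SUV39H1. The design text also speaks of knockdown derivatives, but no sample's label does. Doses and durations were not found in those labels.

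The outermost layers of the skin hold water by means of dead, flattened keratinocytes, each wrapped in a cornified envelope and embedded in lipid sheets. Alox12b and Aloxe3 are lipoxygenases that act in turn on linoleate-bearing ceramides, and Cers3 makes the ceramides with the longest acyl chains. Tgm1 is the membrane-bound transglutaminase that cross-links envelope precursors such as involucrin (Ivl) and the small proline-rich protein Sprr1a. Spink5 encodes LEKTI, an inhibitor of the kallikrein proteases that shed the outermost cells. In humans, inherited loss of TGM1, ALOX12B, ALOXE3 or CERS3 causes ichthyosis, and loss of SPINK5 causes Netherton syndrome.

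With chaetocin, 6 of the 7 genes were higher in each of the 4 libraries than in any of the 4 libraries with TGF-β alone. Ivl overlapped between the groups. Of all 22274 genes of the table, 32.1% were higher without overlap, so that pattern is common in these cells. The share was 31.5% among the 9127 genes with a mean under 0.5 CPM with TGF-β alone, where Aloxe3, Alox12b, Cers3 and Spink5 lie. CPM is the read count relative to library size, scaled between libraries. Among the 5288 genes with 0 counts in all 4 libraries with TGF-β alone, as Spink5 had, 15.8% were higher without overlap, which requires a read in each chaetocin library. Since these genes were picked on the same contrast, nothing is read from their count against these shares. Tgm1 lay inside the pattern, with its highest value at 4.18 CPM with TGF-β alone and its lowest at 7.54 CPM with chaetocin. Ivl lay outside it, as its ranges of 1.43 to 1.96 and 1.53 to 2.13 CPM largely coincided.

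Total counts were 20135312 to 23664084 with TGF-β alone. Chaetocin replicate 1 was similarly deep at 22591935, while its other 3 libraries held 14421225 to 15084876. Of the 14608 genes with enough counts to be tested, edgeR's quasi-likelihood test with Benjamini-Hochberg adjustment called 6129 higher (42.0%) and 5662 lower (38.8%) with chaetocin, at an adjusted p under 0.05. The median log2 fold change over all tested genes was 0.02. It was 0.14 when libraries were scaled by total counts alone.

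The cell type named in the labels was compared with marker levels. FPKM, the deposited level per transcript length and depth, was 511.5 ± 14 (SD, n = 4) for Vim and 37.8 ± 1.83 for Col1a1 with TGF-β alone, both expressed by fibroblasts. Fn1, fibronectin, and Acta2, smooth muscle actin, were the most abundant of the fibroblast markers at 4374.4 ± 105.7 and 621.5 ± 13.1 FPKM. Col1a2 and Pdgfrb, also on the fibroblast list, were at 10.8 ± 1.08 and 2.59 ± 0.167 FPKM. Dcn and Lum, which fibroblasts usually express strongly, were at 0.07 ± 0.0294 and 0.005 ± 0.01 FPKM. The simple-epithelium keratins Krt8 and Krt18 stood at 776.3 ± 13.5 and 543.2 ± 11 FPKM in the same libraries. Cdh1, the epithelial cadherin, stood at 141.4 ± 1.9 FPKM, and Pax8 and Cdh16, which mark kidney tubule epithelium, stood at 44 ± 1.17 and 62.9 ± 5.45 FPKM. The markers of mature tubule segments Lrp2, Aqp1 and Umod were lower, at 4.21 ± 0.141, 1.59 ± 0.114 and 0.228 ± 0.0793 FPKM. The libraries labelled fibroblast thus carried simple epithelial keratins and Cdh1 beside Vim and Fn1, in both treatments. The keratinocyte keratin Krt1 was at 0 in all 8 libraries, and Krt14 was at 0.113 ± 0.0377 FPKM with TGF-β alone and 0.19 ± 0.0876 with chaetocin. Its partner keratin Krt5 was at 0.045 ± 0.0252 and 1.92 ± 0.309 FPKM. Krt10, another keratinocyte keratin, was above these in both groups, at 0.755 ± 0.253 and 2.54 ± 0.468 FPKM. Dsg3 stood at 0.235 ± 0.0412 FPKM with TGF-β alone and 3.12 ± 0.0964 with chaetocin. Trp63, from the regulators of epidermal differentiation, stood at 0.0675 ± 0.015 and 0.398 ± 0.083 FPKM.

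**Figure D1:**
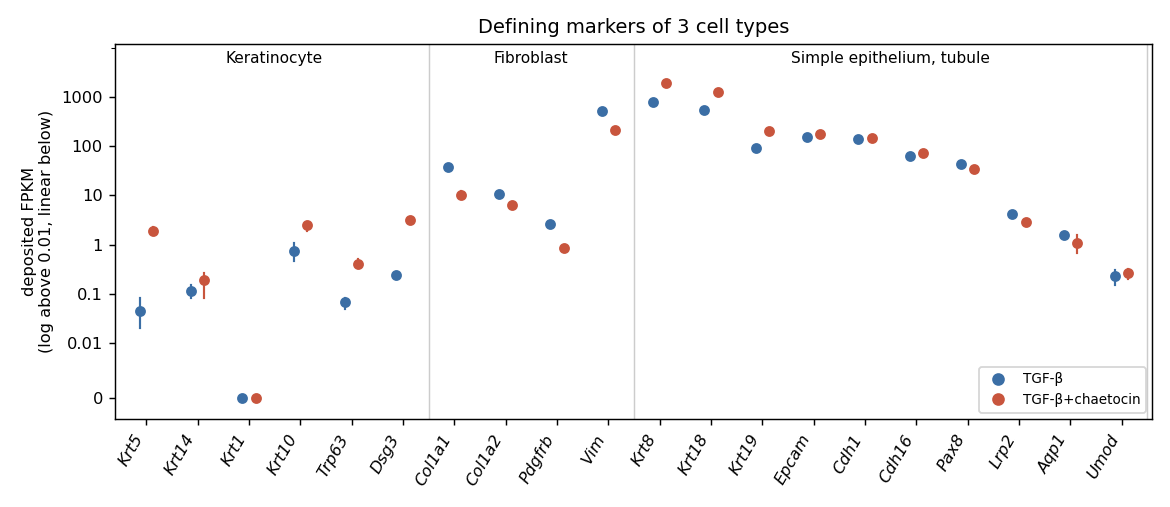
Deposited FPKM of defining markers of keratinocytes, fibroblasts and simple or tubule epithelium, as the mean of 4 libraries with a bar from the lowest to the highest, on an axis that is logarithmic above 0.01. Krt8 and Krt18 lie above every keratinocyte marker drawn, and Krt1 is at 0 in both groups.

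Summed over 35 keratinocyte markers, FPKM ran from 943.5 to 964.4 with TGF-β alone and from 1157 to 1203 with chaetocin. Of those 35 genes, 24 were tested and edgeR with Benjamini-Hochberg adjustment called 18 higher and 5 lower, where 42.0% of all tested genes were called higher and 38.8% lower. Genes such as Krt5 passed the filter only through their chaetocin libraries, which partly fixes that tally. Over all 35, tested or not, 21 were higher without overlap and 2 lower, beside 32.1% higher over the whole table. With total-count scaling 19 of the 24 were called higher and 2 lower. Dsg3 and Itgb4 rose, with log2 fold changes of 3.45 to 3.69 and 0.79 to 0.81 with each library left out in turn. Itga6 and Jup fell, at -0.29 to -0.25 and -0.6 to -0.58. The list includes Epcam and Cdh1, which simple epithelia also express. The sum over 16 fibroblast markers ran from 5474 to 5758 and from 3260 to 3541 FPKM, with 3 called higher and 7 lower of 15 tested. Most of that sum was Fn1, which fell to 2157.4 ± 60 FPKM. Acta2 and Dcn, at the levels given above with TGF-β alone, went the other way. Their log2 fold changes were 0.32 to 0.38 and 3.81 to 4.24 with each library left out in turn. The sum over 10 markers of simple or tubule epithelium ran from 1778 to 1863 and from 3783 to 3958 FPKM, with 5 called higher and 4 lower, near the shares over all tested genes. Krt8 and Krt18 made up most of this sum and rose to 1919 ± 29.1 and 1290.1 ± 33.9 FPKM, while Pax8, Lrp2 and Aqp1 fell. The part of these shifts in the levels of the 7 barrier genes was not tested. In bulk libraries a change in the number of cells that express a gene and a change in RNA per cell cannot be told apart.

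The lipid enzymes are given first. Aloxe3 (ENSMUSG00000020892, GENCODE M21, GRCm38 chr11:69125896-69149115, plus strand) had 7, 2, 6 and 6 counts with TGF-β alone, and 459, 301, 306 and 342 counts with chaetocin. Every chaetocin library lay far above every library with TGF-β alone, although 3 of the 4 were less deeply sequenced. Its mean level was 0.246 ± 0.0983 CPM (SD, n = 4) without chaetocin and 20.3 ± 1.14 CPM with it. The fitted log2 fold change was 6.31 with a standard error of 0.16, a 79.1-fold difference, and it ranks 265 of 14608 tested genes in descending order. The 4 chaetocin libraries differed among themselves by a coefficient of variation of 5.62%, and the few reads with TGF-β alone by 39.9%.

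Alox12b (ENSMUSG00000032807, chr11:69156989-69169792, plus strand), the lipoxygenase that acts before Aloxe3, begins 7.9 kb after Aloxe3 ends. Its counts were 0, 1, 0 and 0 with TGF-β alone, and 11, 4, 7 and 6 with chaetocin. The groups did not overlap, but the gene was too low for the fit across all genes. Its mean was 0.0129 ± 0.0258 CPM (SD, n = 4) against 0.394 ± 0.101 CPM. The ratio of pooled counts over pooled library sizes was 33.8. Its exact 95% counting interval of 5.59 to 1381.6 covers counting error only. The single read with TGF-β alone was in replicate 2, and without that library the ratio was at least 3.12 on the log2 scale, against 5.08 with it. With chaetocin, Alox12b reached 0.168 ± 0.0427 FPKM where its partner enzyme Aloxe3 reached 7.09 ± 0.539 FPKM.

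Cers3 (ENSMUSG00000030510, chr7:66743504-66823691, plus strand), the ceramide synthase, had 8, 9, 9 and 7 counts with TGF-β alone, and 142, 72, 81 and 74 counts with chaetocin. No value overlapped, and the highest chaetocin count was in the deepest library of that group. The means were 0.396 ± 0.0719 and 5.2 ± 0.679 CPM (SD, n = 4). The log2 fold change was 3.72 with a standard error of 0.22, or 13.1-fold. Cers3 had the largest fitted variation between replicates beyond counting error of the 6 genes in the fit. It was 10.3%, against a common value of 2.94% over all tested genes.

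**Figure D2:**
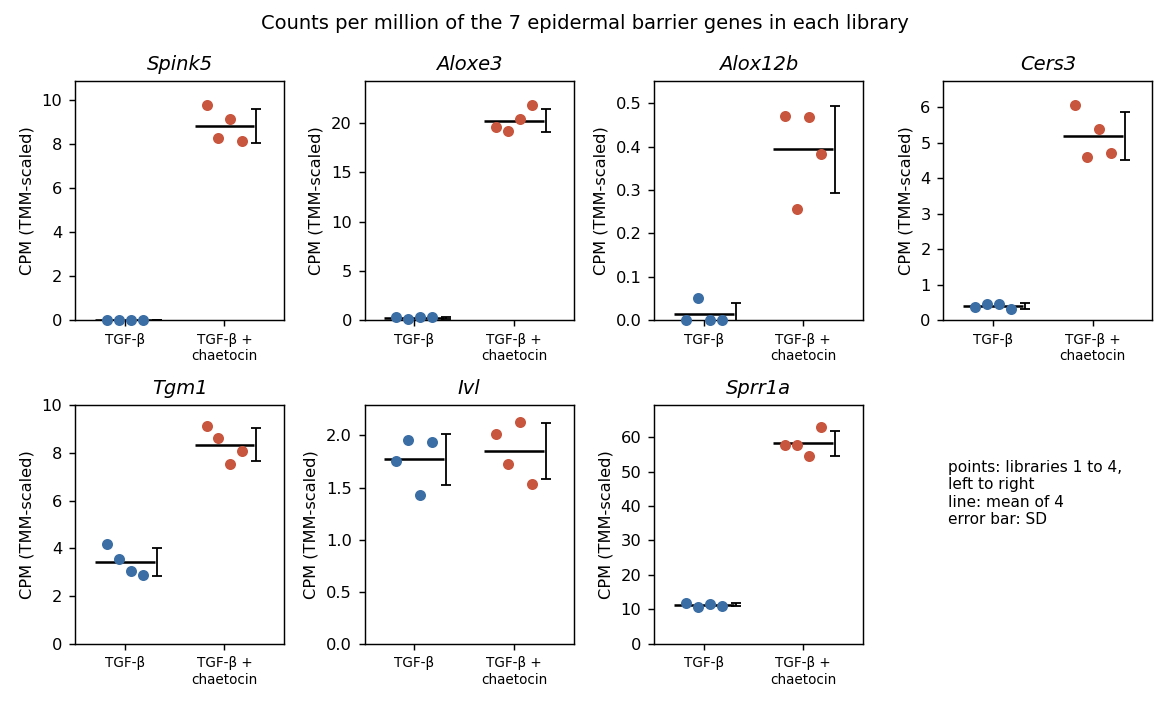
TMM-scaled CPM of the 7 genes in each of the 8 libraries, with libraries 1 to 4 from left to right, the mean as a line and the SD as a bar. In 6 panels all chaetocin points lie above all TGF-β points, and in the Ivl panel the groups overlap.

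Among the envelope genes, the cross-linking enzyme Tgm1 (ENSMUSG00000022218, chr14:55700009-55713926, minus strand) was already expressed with TGF-β alone. It had 91, 69, 62 and 66 counts there, and 214, 135, 113 and 127 counts with chaetocin. The groups stood apart. The means were 3.43 ± 0.575 and 8.35 ± 0.69 CPM (SD, n = 4), a log2 fold change of 1.29 with a standard error of 0.13, or 2.45-fold. Over 182 bases its exons overlap Gm49067 on the opposite strand. The strand setting of the counting is unknown here, and reads there cannot be assigned to either gene with certainty.

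Of the pair of Tgm1 substrates, Sprr1a was higher with chaetocin and Ivl was not separated between the groups, although the genes lie 85.0 kb apart in the epidermal differentiation complex. Their promoter sequences are shown because these neighbouring substrates differ in response. Both are RefSeq sequences of GRCm38.p6 on the minus strand, read 5′ to 3′ from 250 bases before to 50 bases after the start site, chr3:92485832-92486131 for Sprr1a and chr3:92573686-92573985 for Ivl. Capitals mark matches to TGAGTCA, the binding motif of AP-1 transcription factors, on either strand.
Sprr1a: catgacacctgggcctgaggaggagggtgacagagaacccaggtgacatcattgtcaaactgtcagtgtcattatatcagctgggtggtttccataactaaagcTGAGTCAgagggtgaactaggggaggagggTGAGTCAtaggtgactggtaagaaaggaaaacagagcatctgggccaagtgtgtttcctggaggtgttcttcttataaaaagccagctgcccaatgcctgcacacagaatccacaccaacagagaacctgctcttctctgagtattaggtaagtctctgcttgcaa
Ivl: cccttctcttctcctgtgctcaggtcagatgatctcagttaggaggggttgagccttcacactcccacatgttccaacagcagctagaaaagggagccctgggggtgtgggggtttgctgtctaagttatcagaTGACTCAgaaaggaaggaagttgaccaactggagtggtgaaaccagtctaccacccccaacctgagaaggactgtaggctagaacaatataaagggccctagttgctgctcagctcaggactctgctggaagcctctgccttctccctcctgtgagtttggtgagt
The Sprr1a window holds 2 matches, which begin 146 and 116 bases before the start site, and the Ivl window holds 1, which begins 116 bases before it. Of 32851 RefSeq promoter windows of the same length, 5.2% hold the motif and 0.222% hold it 2 or more times. The core of the antioxidant response element, TGACNNNGC on either strand, occurs in the Sprr1a window, beginning 148 bases before the start and overlapping the AP-1 match at 146, and it is not found in the Ivl window. It occurs in 12.4% of all windows. A TATA box, searched as TATAAA, begins 43 bases before the start of Sprr1a and 29 bases before that of Ivl, and 13.6% of all windows hold it. A match describes the letters of the window and not the binding of a factor. Windows were found for 5 of the 7 genes, and those of Tgm1, Alox12b and Cers3 hold no TGAGTCA. The Cers3 window holds the antioxidant element core 125 bases before the start. The GC box GGGCGG, present in 35.7% of windows, occurs 3 times for Alox12b and 2 times in 1 of the 2 Tgm1 windows.

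Sprr1a (ENSMUSG00000050359, chr3:92483952-92485895, minus strand) had 257, 209, 235 and 252 counts with TGF-β alone. With chaetocin it had 1353, 902, 815 and 987 counts, and no value of one group reached the other. The means were 11.3 ± 0.473 and 58.2 ± 3.55 CPM (SD, n = 4), a log2 fold change of 2.36 with a standard error of 0.06, or 5.14-fold. It was the most abundant of the 7 genes in both groups. Its fitted variation between replicates beyond counting error, 3.62%, was the lowest of the 6 genes in the fit.

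Ivl (ENSMUSG00000049128, chr3:92570902-92573735, minus strand), which is laid down early as the scaffold of the envelope, had 38, 38, 29 and 44 counts with TGF-β alone. With chaetocin it had 47, 27, 32 and 24 counts, within nearly the same range. The means were 1.77 ± 0.243 and 1.85 ± 0.273 CPM (SD, n = 4). The log2 fold change was 0.07 with a standard error of 0.20, smaller than its error, and it ran from -0.02 to 0.14 when each library was left out in turn.

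Spink5 (ENSMUSG00000055561, chr18:43963235-44022501, plus strand) had no count in any of the 4 libraries with TGF-β alone. With chaetocin it had 228, 129, 137 and 127 counts, or 9.74, 8.24, 9.14 and 8.10 CPM. All 4 chaetocin libraries therefore lay far above the level that a count of 0 allows, which is 3 reads in a library, or 0.132 to 0.155 CPM. The mean with chaetocin was 8.81 ± 0.775 CPM (SD, n = 4). Against a floor of 3 counts over the whole TGF-β group, Spink5 was at least 249.8-fold higher. Its best known targets are kallikreins, of which Klk5 had no count in any library and Klk7 had 0 to 3 counts per library. Of 10 kallikrein genes in the lists described later, 6 were too low. The 4 with enough counts were called higher by edgeR, beside 42.0% of all tested genes. Some of these, such as Klk6, passed the filter only through their chaetocin libraries, which partly fixes that tally. Klk6 had no count with TGF-β alone and 2.0 ± 0.365 CPM with chaetocin, at least 55.9-fold higher, and Klk8 rose from 4.28 ± 0.28 to 9.11 ± 0.497 CPM.

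Compared per transcript length with TGF-β alone, Sprr1a led with 13.5 ± 0.537 FPKM (SD, n = 4), followed by Tgm1 with 1.59 ± 0.36 and Ivl with 0.885 ± 0.121. Cers3 with 0.158 ± 0.078 and Aloxe3 with 0.0775 ± 0.0263 came next, and their ranges overlapped. Alox12b was at 0.005 ± 0.01 FPKM and Spink5 was listed at 0. With chaetocin the order was Sprr1a with 75.0 ± 4.57, Aloxe3 with 7.09 ± 0.539, Tgm1 with 3.71 ± 0.247, Cers3 with 2.06 ± 0.483, Spink5 with 1.92 ± 0.164, Ivl with 1.0 ± 0.143 and Alox12b with 0.168 ± 0.0427 FPKM. Cers3 and Spink5 overlapped over their libraries and so have no order, while all other neighbours in this order stood apart. Aloxe3 thus passed Tgm1 and Ivl, and Cers3 and Spink5 passed Ivl.

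**Figure D3:**
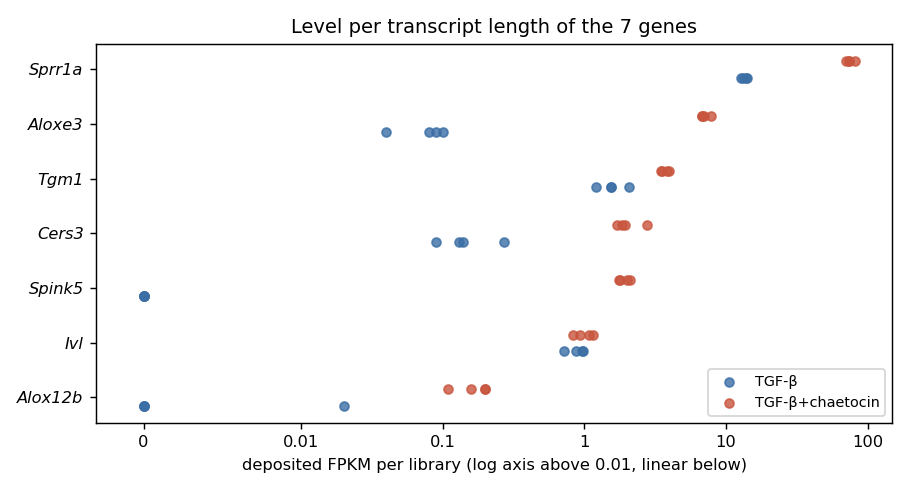
Deposited FPKM of the 7 genes in each library, on an axis that is logarithmic above 0.01, with genes ordered by their mean with chaetocin. Aloxe3, Cers3 and Spink5 move past Ivl from one treatment to the other.

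Around these genes, 181 other genes of epidermal lipids, envelope, proteases and their regulation were followed in 6 lists. Of the 111 with enough counts, edgeR with Benjamini-Hochberg adjustment over all 14608 genes called 74 higher and 32 lower with chaetocin, and 5 passed in neither direction, beside 42.0% and 38.8% of all tested genes. Their median log2 fold change was 0.75, or 0.75 also with genes at 0 counts with TGF-β alone set to their lower bound, against 0.02 over all tested genes. A low gene enters this count only if some group lifts it above the filter. Over all 181 genes, tested or not, 91 were higher without overlap and 32 lower, beside 32.1% higher over the whole table. The lists were drawn up with results of these data known, and no list test was made.

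The lists did not move alike. Over all 54 other cornified envelope genes, 29 were higher without overlap and 2 lower, beside 32.1% higher over the whole table. Of the 21 with enough counts, 20 rose and 1 fell, with a median of 2.50, beside 42.0% and 38.8% of all tested genes. But some of the 21, such as Sprr2k, passed the filter only through their chaetocin libraries, which partly fixes that tally. Ppl, which encodes the plakin periplakin at the envelope's rim, rose from 32.0 ± 0.914 to 145.4 ± 1.83 CPM (adjusted p = 7.96e-28, edgeR). Its partner Evpl, envoplakin, went the other way, from 16.1 ± 1.26 to 13.1 ± 1.54 CPM (adjusted p = 0.00161, edgeR), a call not made by limma on FPKM (adjusted p = 0.125 to 0.165). The cysteine protease inhibitor Cstb rose from 116.4 to 234.9 CPM. All 3 tested transglutaminases beside Tgm1 rose. F13a1, a blood clotting factor subunit, went from 0.176 to 7.18 CPM. Tgm6 had 1 read over the 4 libraries with TGF-β alone and 4.08 CPM with chaetocin. Both passed the filter only through their chaetocin libraries, and the other tested gene rose 1.1-fold. Over all 7, tested or not, 5 were higher without overlap, beside 32.1% over the whole table. All 4 tested genes of the lipoxygenase list beside Aloxe3 rose, where 42.0% of all tested genes were called higher. Among the 4 was the leukotriene-forming Alox5, which went from 1.36 to 4.34 CPM. Alox8, also among the 4, entered the fit through its chaetocin libraries. With untested genes counted, all 6 of that list other than Aloxe3 and Alox12b were higher without overlap, beside 32.1% over the whole table.

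Of the 33 other ceramide and barrier lipid genes, 24 were tested. These were divided, with 10 up and 12 down, beside 42.0% and 38.8% of all tested genes. Their median was -0.12. With total-count scaling the split was 11 up and 10 down, so the list has no direction that scaling leaves in place. The lipase gene Lipm rose from 0.0496 to 5.84 CPM, with exons that overlap Ankrd22 on the opposite strand. The acid ceramidase gene Asah1 fell from 261.9 to 187.3 CPM, and Psap, which encodes activators of lysosomal lipid hydrolases, fell from 1347.3 to 919.2 CPM.

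Among 38 other skin protease and inhibitor genes, 14 rose and 5 fell of 20 tested, with a median of 1.2. Some of these, such as Klk6, passed the filter only through their chaetocin libraries, which partly fixes that tally. Over all 38, tested or not, 14 were higher without overlap and 5 lower, beside 32.1% higher over the whole table. Where 4 libraries had to reach 1 CPM, 10 rose and 5 fell of 16, with a median of 0.72. Unfiltered, 16 rose and 6 fell of 33, with a median of 1.66. Cst6, the cystatin that restrains envelope-processing cathepsins, rose from 1.77 ± 0.183 to 31.2 ± 1.76 CPM (edgeR adjusted p = 2.93e-24). The membrane protease Prss8 rose from 15.3 to 52.8 CPM, with a small exon overlap with Kat8, while St14, matriptase, which acts in a cascade with it, fell from 373.6 to 243.8 CPM. F2rl1, the receptor that kallikreins cleave, fell from 274.6 to 77.2 CPM. Of 43 regulators of epidermal differentiation, 23 rose and 14 fell of 39 tested, with a median of 0.39. Shares over all tested genes were 42.0% and 38.8%. Genes such as Ovol1 entered the fit only through their chaetocin libraries, which partly fixes that tally. Over all 43, tested or not, 24 were higher without overlap and 13 lower, beside 32.1% higher over the whole table. Ovol1, a transcription factor of terminal differentiation, rose from 0.129 ± 0.0929 to 20.6 ± 2.47 CPM. Its exons overlap Gm31166 and AC126029.1 on the opposite strand, by up to 690 bases. Fosl1, an AP-1 subunit, rose from 5.97 to 41.7 CPM, but 1163 bases of its exons overlap Ccdc85b on the opposite strand. Vdr and Maf, both regulators of keratinocyte differentiation, fell from 15.1 to 4.91 and from 29.0 to 9.77 CPM.

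**Figure D4:**
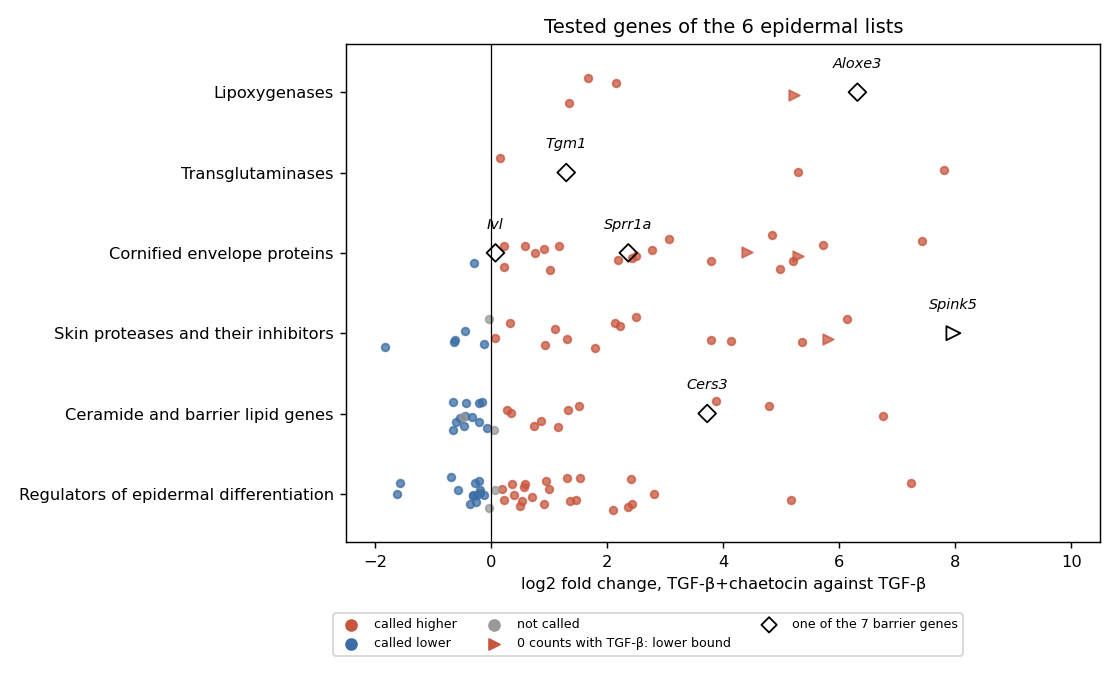
Log2 fold change of chaetocin against TGF-β alone for each tested gene of the 6 epidermal lists, coloured by the edgeR call, with genes at 0 counts with TGF-β alone drawn as triangles at their lower bound. Open symbols are the barrier genes, of which Ivl lies near 0, Alox12b is too low to be drawn, and Spink5 is at its lower bound.

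The nearest genes on each chromosome were counted as well. Of 31 distinct neighbours, taken as the 3 nearest on each side with a row in the table, 18 were tested and edgeR with Benjamini-Hochberg adjustment called 8 higher, 9 lower and 1 in neither direction, beside the 42.0% and 38.8% over all tested genes. All 6 neighbours of Cers3 fell, with log2 fold changes from -0.98 for Adamts17 to -0.49 for Lysmd4, and the call of Adamts17 was lost with limma on log2(FPKM + 1) without a filter (adjusted p = 0.228). Beside Aloxe3 and Alox12b, the lipoxygenase gene Alox8 went from 0 counts in each library with TGF-β alone to 1.36 ± 0.24 CPM, at least 37.4-fold higher, having entered the fit through its chaetocin libraries. On the same stretch Per1 and Cntrob rose by 0.49 and 0.50 on the log2 scale, and Vamp2 fell by 0.20. The Vamp2 call was lost with total-count scaling (edgeR adjusted p = 0.27) and without chaetocin replicate 4 (edgeR adjusted p = 0.052). It was also lost with limma on FPKM (adjusted p = 0.454 to 0.49). Gucy2e held 1 to 24 counts with TGF-β alone and 17 to 24 with chaetocin. Its call was lost without TGF-β replicate 3 (edgeR adjusted p = 0.0579) or replicate 4 (0.0625), and with DESeq2 (adjusted p = 0.168). Around Tgm1 the 6 neighbours lay between -0.18 and 0.38 on the log2 scale.

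Around Spink5, the neighbours Spink1, Scgb3a2 and Spink14 had no count in any library. Spink6 had at most 1 count and Spink12 at most 4 in a library, and Gm94 went from 0 to between 3 and 19 counts. In the epidermal differentiation complex, Sprr2k had no count with TGF-β alone and 1.4 ± 0.139 CPM with chaetocin, at least 39.0-fold higher. Sprr1b, Sprr3 and Lce1a1 were higher without overlap at no more than 23 counts a library, and Sprr4, Smcp and Lce6a overlapped. Small proline-rich genes resemble one another, and how reads shared between copies were assigned is unknown here.

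**Figure D5:**
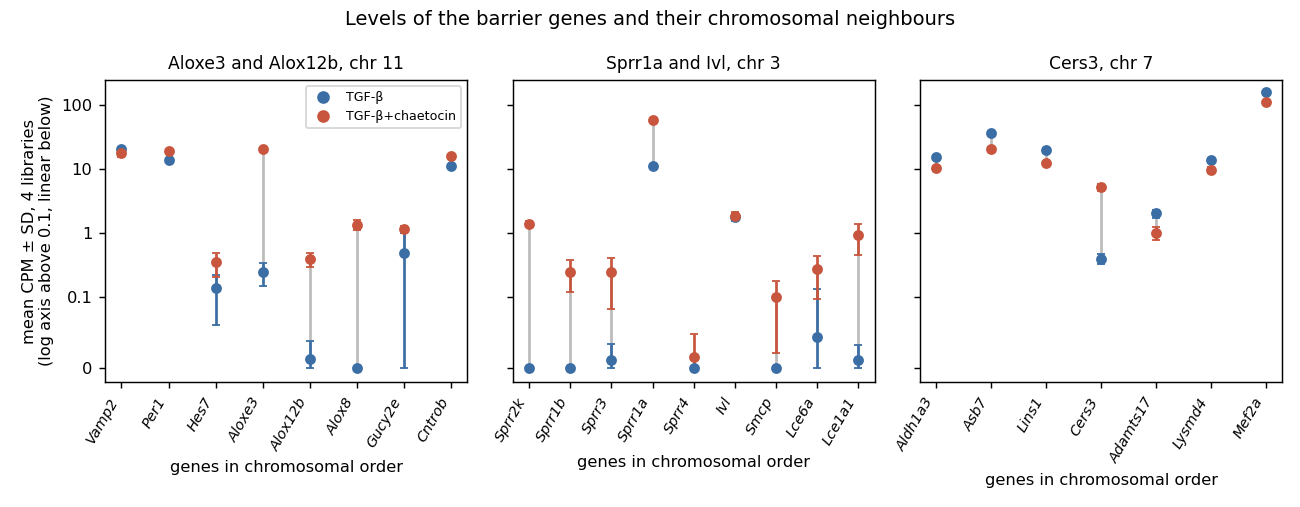
Mean CPM with SD, its bar ended at 0, over 4 libraries for Aloxe3, Alox12b, Sprr1a, Ivl and Cers3 and their nearest genes in chromosomal order, on an axis that is logarithmic above 0.1. All 6 neighbours of Cers3 are lower with chaetocin while Cers3 is higher.

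The genes most like Aloxe3 and Spink5 were taken as those at the smallest Euclidean distance over the 8 libraries in log2 CPM. For Aloxe3 they were Gsdma, Gm11639, Dsg4, Ryr1 and Rab39b, at distances of 0.95 to 1.47. Gsdma, gasdermin A, went from 0.189 ± 0.0647 CPM (SD, n = 4) to 15.8 ± 1.05 CPM, and Dsg4, a desmosomal cadherin of skin and hair, had 0.31 ± 0.233 and 23.0 ± 1.4 CPM. Gm11639 shares 2157 exon bases with Efcab3 on the same strand. For Spink5 they were Abcb11, Gm8138, Stk32b, Opcml and Mep1a, at distances of 0.24 to 0.96. Abcb11, the bile salt export pump, had 0 counts in the same 4 libraries and 8.72 ± 0.738 CPM with chaetocin, where Spink5 had 8.81 ± 0.775. The likeness measure sees levels and treatment together and describes these libraries only.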

How the data were processed

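Per the labels' protocols, an RNeasy kit served for RNA extraction and a SMARTER mRNA kit for the libraries. Per the file headers, the deposited table lists 22274 genes, each with an unnormalized read count and an FPKM value for every library. It also holds the authors' mean FPKM per group, their log2 ratio, their p-value and their FDR, which are deposited values not used here. Per the submitters' processing notes, reads were placed on GRCm38 (mm10). The aligner, counter, annotation and strand setting were not given in the sources used here. Positions come from GENCODE M21 (GRCm38), which held 22219 of the 22274 gene identifiers.

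Counts were tested with edgeR 4.0.16 (quasi-likelihood, TMM scaling, filterByExpr, Benjamini-Hochberg over 14608 genes, called at an adjusted p under 0.05) in R 4.3.3, over all 8 libraries grouped by treatment label. Alternatives used limma 3.58.1 on log2(FPKM + 1) or log2(FPKM + 0.1), limma-voom, DESeq2 1.42.0, other scalings and filters, and each library left out in turn. CPM uses TMM-scaled library sizes. Replicates of a group differed beyond counting error (mean chi-square per gene 2.0 to 2.56 over 12 pairs), so none was merged. The labels do not say whether libraries come from separate cultures; p-values reflect only the spread between these libraries, which may be technical. A count of 0 allows 3 counts.

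The 7 genes and all lists were chosen with earlier results of these data known. Beside the 7 genes, the text names the 2 called genes of smallest p in each direction per list, the 5 genes most like Aloxe3 and Spink5 (log2 CPM, prior count 2), the 3 nearest genes on each side, and cell type markers. A gene that this rule also names is not reported here. Krt14 and others are named as defining markers. Klk5, Klk6, Klk7 and Klk8, as kallikreins, and Lum were chosen after their values were seen. The replicate numbers do not pair the libraries.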

Additional observations from a re-analysis of the deposited data

Results flagged for a closer look

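In 16 of 131 groups of 4 libraries examined, 1 library stood apart from the other 3 by a gap, relative to the group's range, above Dixon's critical value. Chance flags about 1 in 20 such groups. The total count of chaetocin replicate 1, 22591935, stood above those of the other 3 chaetocin libraries.

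For many low genes the library that stood apart was the only one with a read, or nearly so. With TGF-β alone this held for Alox12b at 0.0515 CPM, Lce1a1 at 0.044 CPM, Lce6a at 0.176 CPM, Opcml at 0.0494 CPM, Sprr3 at 0.0459 CPM, Stk32b at 0.0459 CPM and Tgm6 at 0.0459 CPM. With chaetocin it held for Spink6 at 0.0427 CPM and Sprr4 at 0.0638 CPM.

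Other values set apart were as follows. With TGF-β alone, Col1a1 was lowest in 1 library at 217.3 CPM and Maf was highest in 1 at 30.4 CPM. With chaetocin, F13a1 was highest in 1 library at 8.20 CPM, Lce6a was highest in 1 at 0.534 CPM, Ryr1 was lowest in 1 at 15.3 CPM, and Spink12 was lowest in 1 at 0.0667 CPM.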

How the results depend on the processing

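In all alternatives run, 6 of the 7 genes stayed higher in every chaetocin library than in every library with TGF-β alone. At a given scaling, another test or a library left out cannot make separated groups overlap, so this outcome was largely fixed in advance. Leaving out each library in turn gave 6030 to 6276 genes higher and 5538 to 5677 lower over all genes, and 73 to 80 higher and 30 to 33 lower over the other epidermal genes. It gave log2 values of 6.07 to 6.45 for Aloxe3, 3.60 to 3.79 for Cers3, 2.32 to 2.39 for Sprr1a, 1.21 to 1.4 for Tgm1 and -0.02 to 0.14 for Ivl. The lower bound for Spink5 was 7.51 to 8.0. Alox12b moved from 5.08 to at least 3.12 without TGF-β replicate 2, which held its only read of that group.

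The 32 other epidermal genes called lower became 20 with limma on log2(FPKM + 0.1), 20 on log2(FPKM + 1) and 21 without its filter. The 2 filtered fits tested 91 of these genes rather than 111, and called 57 higher rather than 74. Without the filter 171 were tested and 102 called higher. The cause was not tested. The pseudocount of 1 shrinks low genes by construction, and Aloxe3 became 2.91, Cers3 1.39 and Tgm1 0.87. Total-count scaling called 7180 genes higher and 4514 lower over all genes, and 77 and 25 over the other epidermal genes.

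Some neighbours of Tgm1 changed sign. Gmpr2 became 0.13 with limma on log2(FPKM + 0.1) and 0.12 on log2(FPKM + 1) with and without filter. Nop9, not called at -0.01, became 0.10, 0.09 and 0.09 in those fits, 0.10 with total-count scaling and ranged from -0.06 to 0.02 when each library was left out. Nedd8, Gmpr2, Rabggta and Dhrs1 each lost their call in at least 1 alternative, as did Adamts17 beside Cers3, at -0.44 with limma on log2(FPKM + 1) without filter.

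The replicate numbers carry no stated pairing. Same-numbered libraries correlated at -0.0134 to 0.0318 in their deviations from the group means, and 0 of the 4 libraries with TGF-β alone correlated best with their own number. With the replicate number as a block, 6105 genes were higher and 5643 lower, and the other epidermal genes stood at 74 and 32. Depth limits Spink5 and Alox12b, at 0 reads and 1 read over the TGF-β group.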

Other observations

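The deposited FPKM values and the counts do not differ by a fixed gene length. Dividing counts by FPKM and by the library's depth gives the length behind each FPKM value. For Sprr1a this length was 806 bases in all 8 libraries. For Tgm1 it ran from 1916 to 2676 bases and for Cers3 from 1586 to 3287 bases. As a result Cers3 was highest among the chaetocin libraries in replicate 1 by counts, at 6.07 CPM, and in replicate 3 by FPKM, at 2.77. The group difference of Cers3 was present on both scales.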
